A study of Mus musculus with 10 samples.

Results

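The genes described here encode proteins that coat fat droplets or take the stored fat apart: the perilipins Plin1, Plin2, Plin4 and Plin5, the droplet fusion protein Cidec, the lipases Pnpla2, Lipe and Mgll, and the lipase regulators G0s2 and Abhd5. They were listed by name, and each was read from every probe set (a group of short probes for 1 transcript) that the platform annotation gives to that gene alone. Of the 10 listed genes, 9 were read this way, by 17 of the 34945 probe sets with 1 gene. Plin1, the perilipin that holds the lipolytic machinery in check at the droplet surface, was not matched to a probe set of its own and is not analysed here. Brown adipose tissue, the heat-producing fat of rodents, was taken from 5 mice labelled KO for Sirt3, the gene of the mitochondrial deacetylase SIRT3, and from 5 mice labelled WT. Per the labels, the mice were littermates of both genotypes, about 1 year old, on a 129 background and untreated; each Affymetrix array is taken here as a separate mouse. The labels do not give the sex of the mice, the part of Sirt3 that was deleted, or whether the deletion was limited to a tissue.

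Fat cells keep triglyceride in droplets, and brown adipocytes burn the fatty acids that leave them. Triglyceride is cut stepwise: PNPLA2 (also called ATGL) releases the first fatty acid, LIPE (hormone-sensitive lipase) mainly the next one, and MGLL (monoglyceride lipase) the last. ABHD5 (CGI-58) activates PNPLA2, and G0S2 inhibits it. Perilipins on the droplet decide how far ABHD5 and the lipases reach each other, and cyclic AMP signals from adrenergic receptors set this step in motion through phosphorylation, so transcript levels show only a part of its control.

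The promoters of Abhd5, Plin5, Cidec and Lipe are shown because all 6 pairs among these 4 genes were among the 7 that passed the correlation test over the arrays described further on, the first 3 genes in the same direction and Lipe in the opposite one; none of those pairs passed without WT 4 and WT 5. Each sequence is the 250 bases before a transcription start that RefSeq lists on mouse assembly GRCm38.p6, printed from 5′ to 3′ on the strand of the gene. For Lipe both listed starts are shown, and for Plin5 and Cidec the first of 2. Capitals mark matches to motifs searched on both strands.
Abhd5 (chr9:122351366-122351615, plus strand): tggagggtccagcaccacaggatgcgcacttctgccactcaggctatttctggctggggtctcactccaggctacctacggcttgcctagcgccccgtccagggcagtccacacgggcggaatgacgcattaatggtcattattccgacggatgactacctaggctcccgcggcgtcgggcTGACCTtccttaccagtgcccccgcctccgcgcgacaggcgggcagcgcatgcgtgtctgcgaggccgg
Plin5 (chr17:56117549-56117798, minus strand): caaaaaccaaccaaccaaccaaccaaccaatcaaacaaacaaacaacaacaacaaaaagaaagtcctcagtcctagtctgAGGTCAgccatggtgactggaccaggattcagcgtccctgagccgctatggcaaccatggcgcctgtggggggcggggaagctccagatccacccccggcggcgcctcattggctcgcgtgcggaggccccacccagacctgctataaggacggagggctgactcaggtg
Cidec (chr6:113435761-113436010, minus strand): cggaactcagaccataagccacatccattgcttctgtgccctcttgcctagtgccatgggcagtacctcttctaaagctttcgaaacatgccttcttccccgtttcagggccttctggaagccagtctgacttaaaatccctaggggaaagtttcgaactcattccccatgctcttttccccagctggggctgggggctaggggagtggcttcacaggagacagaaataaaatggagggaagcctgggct
Lipe, start 1 (chr7:25395988-25396237, minus strand): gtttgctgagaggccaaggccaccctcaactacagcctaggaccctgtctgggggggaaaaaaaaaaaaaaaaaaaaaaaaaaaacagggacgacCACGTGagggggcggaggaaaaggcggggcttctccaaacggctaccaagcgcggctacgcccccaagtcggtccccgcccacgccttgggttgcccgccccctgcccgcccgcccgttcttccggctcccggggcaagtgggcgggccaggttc
Lipe, start 2 (chr7:25390113-25390362, minus strand): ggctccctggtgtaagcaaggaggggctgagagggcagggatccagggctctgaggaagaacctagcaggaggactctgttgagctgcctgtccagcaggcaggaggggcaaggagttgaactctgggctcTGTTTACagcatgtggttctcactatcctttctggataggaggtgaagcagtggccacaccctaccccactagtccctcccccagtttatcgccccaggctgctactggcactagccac
The capitals in Abhd5 and Plin5 are the nuclear receptor hexamer AGGTCA, read on the opposite strand in Abhd5 (bases 69 to 64 before the start) and on the gene's strand in Plin5 (bases 170 to 165). The same hexamer stood before Plin2, so 3 of the 13 promoters listed for the 9 genes held it, while 14.0% of all 32851 promoters of this length did. In Lipe the capitals are the E-box CACGTG before start 1 and the FOXO motif GTAAACA, on the opposite strand, before start 2. Of the 13 promoters, 1 each from Lipe and Mgll held the E-box, which stood in 6.02% of all promoters, and likewise 1 each held the FOXO motif, which stood in 3.17%. The cyclic AMP response element TGACGTCA and a glucocorticoid response element pattern were in 0 of the 13, and in 1.55% and 0.387% of all promoters. Cidec held none of the 5. A match is a string of letters, not a site shown to be bound.

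The arrays resembled each other, with pairwise correlations between 0.9875 and 0.9965. Of the 11 brown fat markers, Ucp1, the uncoupling protein of brown fat, lay between 13.96 and 14.19 log2 units in KO arrays and between 14.09 and 14.28 in WT arrays. Zic1, a transcription factor of brown fat precursors, was dim, at 4.43 to 6.26 in KO arrays and 5.21 to 6.40 in WT arrays. Sirt3 itself was not lower in arrays labelled KO: its signal was 10.39, 10.29, 10.40, 10.22 and 10.31 in KO arrays 1 to 5, against 10.10, 10.28, 10.19, 10.07 and 10.03 in WT arrays 1 to 5, a difference of 0.19 ± 0.062 (SE; adjusted p of limma 0.885). For Sirt3, 4 KO arrays lay above every WT array. Its unadjusted p of limma was 0.0106, and its exact two-sided permutation p was 0.0159. The difference was 0.13 without WT 4 and WT 5. The sources do not say whether the Sirt3 probes lie inside the deleted part. The signal thus leaves the labels unchecked, and directions below rest on them. The mean of 20 skeletal muscle transcripts ranged from 5.63 to 10.86 in KO arrays and from 7.60 to 11.55 in WT arrays. The 3′ minus 5′ control signal of Pcx, a sign of RNA integrity, was 2.77 to 2.95 in KO arrays and 2.96 to 3.44 in WT arrays. The same difference overlapped for Actb, at 0.50 to 0.77 in KO arrays and 0.33 to 0.80 in WT arrays, and for Gapdh, at -0.15 to -0.12 in KO arrays and -0.13 to -0.10 in WT arrays; the part of RNA quality in the results was not tested. In bulk tissue, fewer cells of a type and less RNA per cell cannot be told apart.

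Genes of the lipid droplet and of lipolysis showed small differences between arrays labelled Sirt3 KO and WT, and none passed the test. The largest among the leading probe sets (for each gene, the one with the highest mean signal) were Abhd5 at -0.26 ± 0.209 log2 units and Cidec at -0.19 ± 0.109, given as KO minus WT ± SE. Plin5, G0s2, Mgll, Pnpla2 and Plin4 were also lower on average in KO arrays, and Lipe and Plin2 higher. The test was limma over all 34945 probe sets, called at a Benjamini-Hochberg adjusted p under 0.05, and it called 0 of the 17 probe sets and 0% of all. At an unadjusted p under 0.05 there was 1 of the 17, a probe set of Mgll, where 5.41% of all probe sets lay under that level. Leaving out 1 array moved this count to 3 without WT 2 (Mgll, Cidec and the dimmer Pnpla2 probe set), to 2 without KO 3 (Mgll and Plin2) and to 2 without WT 1 (Mgll and Cidec). The differences of the 17 ran from -0.26 to 0.11 with a median of -0.077, against a median of -0.006 over all probe sets. Of the 17, 13 were lower in KO arrays, as were 52.7% of all probe sets. Without WT 4 and WT 5, which earlier results of these data set apart, 8 of the 17 were lower and the median was 0.006, with 0 at an unadjusted p under 0.05.

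**Figure D1:**
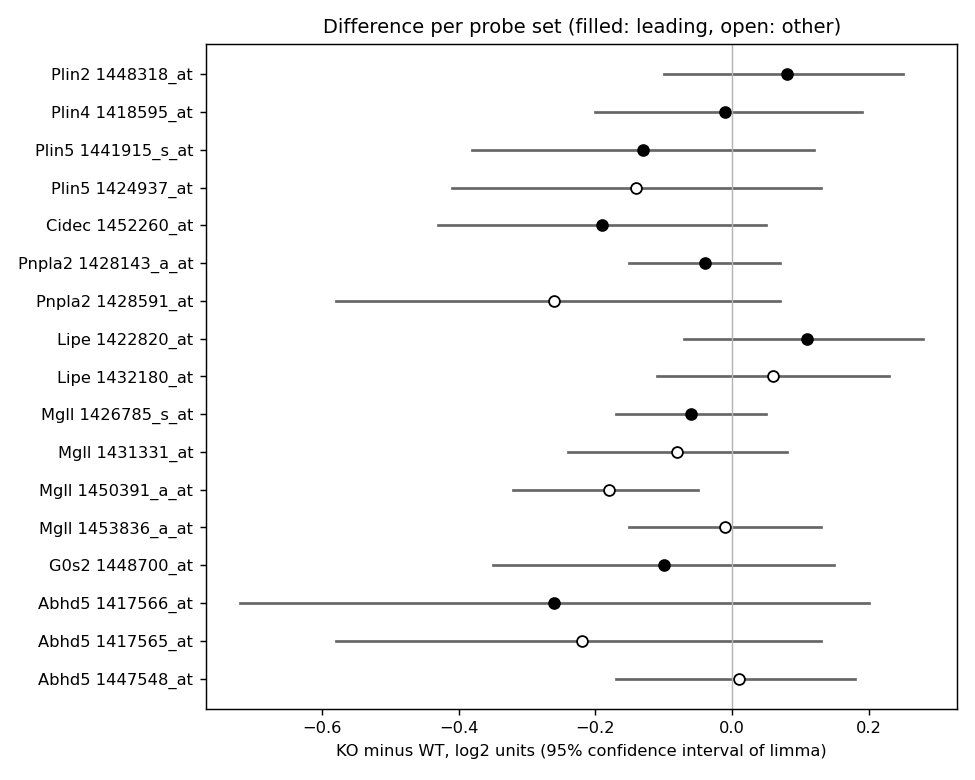
KO minus WT difference in log2 units (horizontal) of each of the 17 probe sets (vertical), with the 95% confidence interval of limma as a line; filled points are leading probe sets and open points the others. All intervals except that of 1 Mgll probe set, -0.32 to -0.05, include 0.

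The droplet coat proteins were read for Plin2, Plin4 and Plin5. Plin2, which coats droplets in most cell types, gave 13.61, 13.58, 13.30, 13.68 and 13.75 log2 units in KO arrays 1 to 5, against 13.56, 13.56, 13.53, 13.40 and 13.47 in WT arrays 1 to 5. The groups overlap: 4 KO arrays lay above every WT array and KO 3 below every one of them. The difference was 0.08 ± 0.081 (95% confidence interval -0.10 to 0.25; adjusted p of limma 0.913), and it was 0.15 without KO 3.

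Plin4, an adipocyte perilipin of small droplets, gave 11.88, 11.76, 11.77, 12.02 and 11.67 in KO arrays and 11.92, 11.93, 11.62, 11.95 and 11.70 in WT arrays. High and low arrays were mixed between genotypes, with means of 11.82 ± 0.13 in KO and 11.82 ± 0.15 in WT (SD, n = 5 each). The interval of its difference, -0.20 to 0.19, bounds a change to between 0.873 and 1.14 times WT.

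Plin5, the perilipin of tissues that burn much fat, which ties droplets to mitochondria, gave 11.22, 11.38, 11.31, 11.26 and 11.47 in KO arrays, against 11.21, 11.26, 11.38, 11.85 and 11.59 in WT arrays. WT 4 and WT 5 were the highest arrays, and the other 3 WT arrays lay within or just below the KO range. The spread was wider in WT (SD 0.26) than in KO (SD 0.10); the difference in spread was not tested. The difference was -0.13 ± 0.114 (adjusted p of limma 0.902), and 0.047 without WT 4 and WT 5. Its other probe set (1424937_at) followed the leading one over the arrays (r = 0.95, n = 10 arrays) and differed by -0.14 ± 0.124, or 0.067 without WT 4 and WT 5.

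Cidec (also named Fsp27), which drives the merging of small droplets into large ones, gave 11.80, 11.75, 11.62, 11.75 and 11.80 in KO arrays, against 11.71, 11.61, 12.08, 12.21 and 12.07 in WT arrays. WT 3, WT 4 and WT 5 stood above all KO arrays, while WT 1 and WT 2 lay among or below them. The KO mean was 0.876 times that of WT (95% confidence interval 0.742 to 1.03; adjusted p of limma 0.885; exact two-sided permutation p = 0.159 for 5 against 5 arrays, unadjusted). All 5 KO arrays were below the WT mean, and the difference lay between -0.27 and -0.12 with any 1 array left out and at -0.056 without WT 4 and WT 5.

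**Figure D2:**
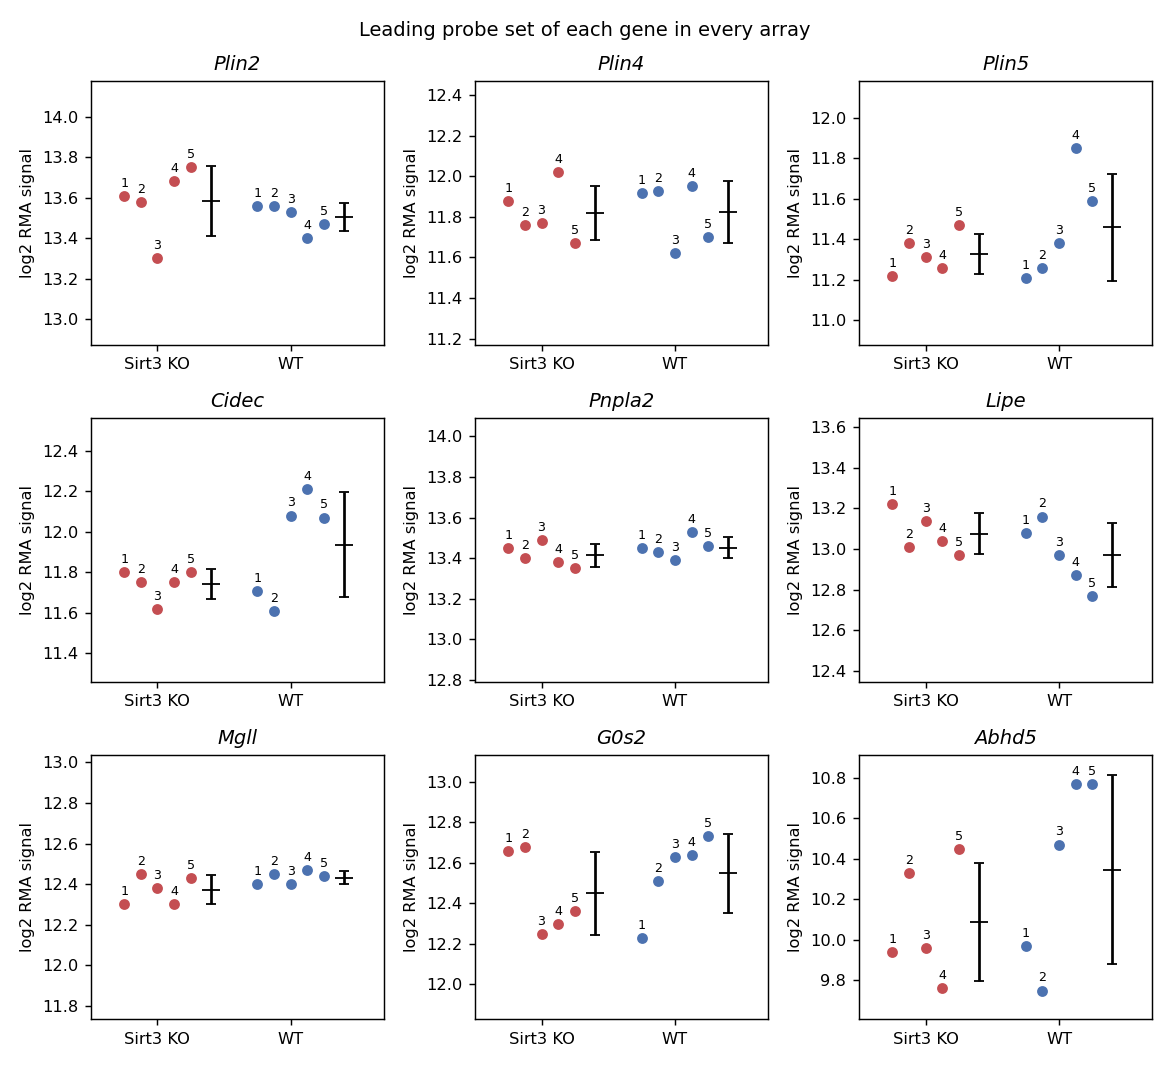
Signal in log2 units (vertical) of the leading probe set of each of the 9 genes in every array, Sirt3 KO left and WT right; numbers are replicate numbers, and bars are the mean and SD of 5 arrays. Every panel spans the same 1.3 log2 units. WT 4 and WT 5 are the highest arrays for Plin5 and Abhd5 and the lowest for Lipe.

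Of the lipases, the leading probe sets of Pnpla2 and Mgll varied little over the arrays (SD 0.056 and 0.059 log2 units), while that of Lipe (0.135) varied about as much as Plin2 (0.130). The leading probe set of Pnpla2 gave 13.45, 13.40, 13.49, 13.38 and 13.35 in KO arrays and 13.45, 13.43, 13.39, 13.53 and 13.46 in WT arrays. These values span only 0.19 log2 units, and the groups overlap. The mean of this set, 13.44, was higher than that of 99.8% of probe sets. Plin2, at a mean of 13.54, spanned 0.45 log2 units. The part of signal compression at such brightness was not tested. The difference was -0.04 ± 0.051, with an interval of 0.899 to 1.05 times WT. A dimmer probe set (1428591_at) spanned 0.98 log2 units, with 7.36, 7.29, 7.13, 7.17 and 7.05 in KO arrays against 7.36, 7.08, 7.27, 8.03 and 7.56 in WT arrays. WT 4 was the highest array in both, and the dimmer set followed the leading one with r = 0.70 (n = 10 arrays). Its difference was -0.26 ± 0.148 (adjusted p of limma 0.885), and -0.037 without WT 4 and WT 5.

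Lipe was the one lipase higher on average in KO arrays, at 13.22, 13.01, 13.14, 13.04 and 12.97, against 13.08, 13.16, 12.97, 12.87 and 12.77 in WT arrays. WT 4 and WT 5 were the lowest of the 10 arrays, the reverse of their place for Plin5, and KO 1 was the highest. The difference was 0.11 ± 0.081 (95% confidence interval -0.07 to 0.28; adjusted p of limma 0.892), and 0.006 without WT 4 and WT 5. The other probe set of Lipe (1432180_at) was dim, with a mean of 4.17 under the array medians of 5.58 to 5.60, and did not follow the leading one (r = -0.02, n = 10 arrays).

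Mgll was read by 4 probe sets that did not give the same difference. The leading one (1426785_s_at) gave 12.30, 12.45, 12.38, 12.30 and 12.43 in KO arrays and 12.40, 12.45, 12.40, 12.47 and 12.44 in WT arrays, a difference of -0.06 ± 0.051. KO 1, KO 3 and KO 4 were below all WT arrays, and the others overlapped. The probe set 1450391_a_at gave 11.73, 11.85, 11.79, 11.62 and 11.87 in KO arrays and 11.92, 11.87, 11.94, 12.04 and 11.99 in WT arrays. It was the 1 of 17 member probe sets in which no KO array reached the WT range, KO 5 and WT 2 both printing as 11.87; groups did not overlap in 0.693% of all probe sets. Its KO mean was 0.882 times that of WT (difference -0.18 ± 0.061, 95% confidence interval -0.32 to -0.05). The exact two-sided permutation p was 0.00794 before any adjustment, the smallest that 5 against 5 arrays can give, against an adjusted p of 0.885 in the limma fit. Without WT 4 and WT 5 the difference was -0.14, and its unadjusted p was no longer under 0.05. Another bright set (1453836_a_at) gave 11.44 to 11.65 in KO arrays and 11.42 to 11.61 in WT arrays, a difference of -0.01 ± 0.065. The remaining one (1431331_at) was dim, with a mean of 5.27 and a difference of -0.08 ± 0.074. The 4 probe sets of Mgll thus gave differences between -0.18 and -0.01, and 1450391_a_at correlated with the leading set at r = 0.83 and with 1453836_a_at at r = 0.43 (n = 10 arrays each).

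Of the regulators of PNPLA2, the inhibitor G0s2 gave 12.66, 12.68, 12.25, 12.30 and 12.36 in KO arrays, against 12.23, 12.51, 12.63, 12.64 and 12.73 in WT arrays. Both genotypes held high and low arrays, with KO 1 and KO 2 near 4 of the WT arrays and WT 1 lowest of all. The difference was -0.10 ± 0.113 (95% confidence interval -0.35 to 0.15; adjusted p of limma 0.926), with a range of -0.18 to -0.049 with single arrays left out. It was -0.006 without WT 4 and WT 5.

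The activator Abhd5 varied most of the 9 genes, with an SD of 0.391 log2 units over the 10 arrays. It gave 9.94, 10.33, 9.96, 9.76 and 10.45 in KO arrays, against 9.97, 9.75, 10.47, 10.77 and 10.77 in WT arrays. WT 3, WT 4 and WT 5 were above all KO arrays, and WT 2 was the lowest of all. The KO mean was 0.835 times that of WT, with an interval of 0.609 to 1.15, so these arrays do not settle whether Abhd5 differed (adjusted p of limma 0.895). The difference was -0.41 without WT 2, -0.15 without WT 4 or WT 5, and 0.024 without both of them. A second bright probe set (1417565_at) followed the leading one (r = 0.96, n = 10 arrays) and differed by -0.22 ± 0.164. The remaining one (1447548_at) had a mean of only 3.32, did not follow it (r = 0.10) and differed by 0.01 ± 0.080.

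Levels of several of these genes followed each other over the arrays. Among the 36 pairs of leading probe sets, 7 had a Pearson r with a permutation p under 0.05 after Benjamini-Hochberg adjustment over the pairs, and 1 had such a Spearman rho. On deviations from each genotype's mean, 5 of the 7 pairs passed. Without WT 4 and WT 5, with 8 arrays left, 0 of the 7 passed; the 1 pair that did was Plin4 with Abhd5, with r = -0.92 there and -0.55 over all arrays. Without KO 5, 3 of the 7 passed, and 4 to 6 of the 7 passed without any other single array.

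Abhd5 and Lipe ran in opposite directions, with r = -0.88 (n = 10 arrays, adjusted permutation p = 0.0106) and rho = -0.89 (adjusted permutation p = 0.0389). Without KO 1 and WT 5, the arrays farthest from the median of Lipe, r was -0.89. Without WT 4 and WT 5 it was -0.73, and on deviations from genotype means -0.86.

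Abhd5 and Plin5 were high in the same arrays, with r = 0.87 (n = 10 arrays, adjusted permutation p = 0.00792) and rho = 0.78 (adjusted permutation p = 0.0764). WT 4 and WT 5 were here the arrays farthest from the median of Plin5, and r without them was 0.84. Abhd5 and Cidec had r = 0.85 (adjusted permutation p = 0.0188) and rho = 0.78 (adjusted permutation p = 0.0764), with r = 0.80 without WT 3 and WT 4, farthest from the median of Cidec, and 0.67 without WT 4 and WT 5.

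Plin5 with Lipe (r = -0.81, adjusted permutation p = 0.0266; rho = -0.84, adjusted permutation p = 0.0727) kept r = -0.74 without WT 4 and WT 5. Plin5 with Cidec (r = 0.80, adjusted permutation p = 0.0309; rho = 0.62, adjusted permutation p = 0.269) rested on those arrays, with r = 0.38 without them. Cidec with Lipe had r = -0.78 (adjusted permutation p = 0.0423), rho = -0.75 (adjusted permutation p = 0.105), r = -0.80 without WT 3 and WT 4, and -0.55 without WT 4 and WT 5.

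Plin2 and Pnpla2, a coat protein and the first lipase, also ran in opposite directions, with r = -0.84 (n = 10 arrays, adjusted permutation p = 0.0223) and rho = -0.81 (adjusted permutation p = 0.0764). That r was -0.78 without KO 3 and KO 5, the arrays farthest from the median of Plin2, and -0.81 without WT 4 and WT 5. Pnpla2 spans only 0.19 log2 units, so this relation rests on small differences.

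Of the pairs listed by name, 3 could be computed, G0s2 with Pnpla2, Abhd5 with Pnpla2 and Lipe with Mgll, and none of them passed. G0s2 with Pnpla2 had r = 0.15 (adjusted permutation p = 0.77) and rho = 0.12 (adjusted permutation p = 0.911), and r = -0.20 without KO 5 and WT 4. Abhd5 with Pnpla2 had r = 0.18 (adjusted permutation p = 0.728) and rho = 0.25 (adjusted permutation p = 0.681), and r = 0.01 without the same arrays. Lipe with Mgll had r = -0.53 (adjusted permutation p = 0.322) and rho = -0.43 (adjusted permutation p = 0.595), and r = -0.29 without KO 1 and WT 5.

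**Figure D3:**
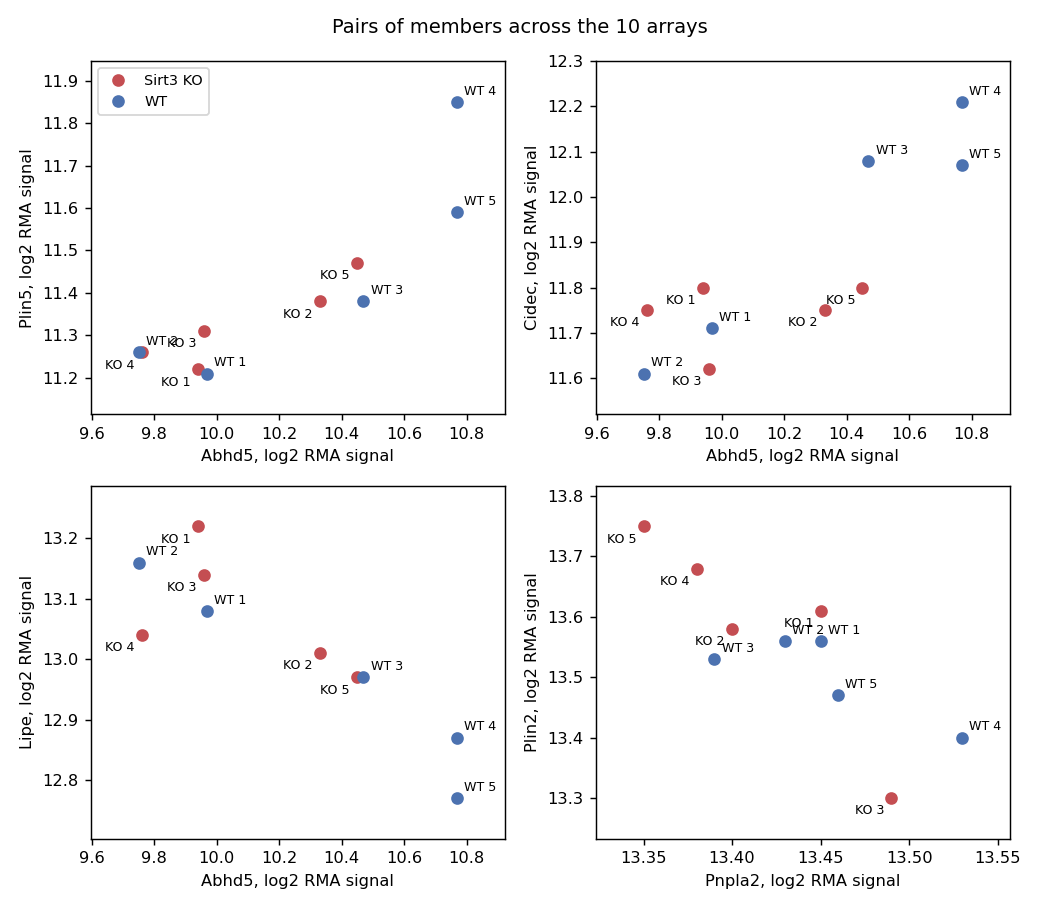
Signals in log2 units of pairs of genes in the 10 arrays, Abhd5 on the horizontal axis against Plin5, Cidec and Lipe on the vertical, and Pnpla2 against Plin2; red points are Sirt3 KO and blue points WT. Arrays of both genotypes lie along each trend, with WT 4 and WT 5 at the high end of Abhd5.

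Some other genes followed Abhd5 or Pnpla2 at least as closely as these partners did. The partners were picked for a high r in these same arrays, so a small share follows in part from that choice. The shares are a description. Of 18193 other genes, 1.74% followed Abhd5, in either direction, at least as closely as Lipe did, 1.90% at least as closely as Plin5 and 2.76% at least as closely as Cidec. For Pnpla2, 0.649% did so at least as closely as Plin2. The 5 genes most like Abhd5 over the 10 arrays were Slc4a4, a sodium bicarbonate cotransporter (r = 0.987), Ctsz, a lysosomal cathepsin (0.986), Tmed5, a protein of the secretory pathway (0.986), Tbc1d20, a Rab GTPase-activating protein (0.981), and Slc25a20, the mitochondrial carnitine-acylcarnitine carrier (0.977). These were picked as the highest of all genes, so the r values are a description.

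Other cell types were set beside this pattern. The mean of 20 skeletal muscle transcripts was 5.88, 10.86, 5.63, 10.85 and 9.84 in KO arrays, against 10.92, 11.55, 10.88, 9.34 and 7.60 in WT arrays. Its r with the 9 genes lay between -0.49 (Pnpla2) and 0.48 (Plin2), and none of the 9 had an adjusted permutation p under 0.05. Without KO 1 and KO 3, the arrays lowest in muscle transcripts, its r was 0.94 with Lipe, -0.78 with Abhd5 and -0.72 with Plin5 (n = 8 arrays). With WT 4 and WT 5 left out instead, these were -0.58 with Lipe, 0.14 with Abhd5 and 0.16 with Plin5, each of the opposite sign. Pnpla2 and Plin2 kept their signs, with r of -0.38 and 0.39 without KO 1 and KO 3. Without WT 4 and WT 5 these were -0.59 for Pnpla2 and 0.48 for Plin2. The part of muscle RNA in those relations was not tested. The mean of 11 brown adipocyte markers was highest in WT 5 (11.08) and WT 4 (10.93), and ranged from 10.58 to 10.83 in the other arrays. These markers did not move alike. Dio2 was highest in WT 5 (11.32) and WT 4 (11.20), while Ebf2 was low in both (8.54 and 8.59), with only KO 5 lower (8.45). The mean of 7 white adipocyte markers was 6.63 to 7.45 in KO arrays and 6.56 to 7.64 in WT arrays. Its members did not move alike: Lep, the leptin gene, was lowest of all arrays in WT 5 (5.75) and WT 4 (6.34), while Retn, the resistin gene, was highest in WT 4 (9.91) and WT 5 (9.21). The mean of 9 macrophage markers was 7.02, 7.36, 7.17, 7.10 and 7.47 in KO arrays, against 7.24, 7.18, 7.49, 7.43 and 7.63 in WT arrays. It was highest in WT 5 and WT 3, followed by KO 5 and WT 4, which are also the 4 arrays highest in Abhd5. Its KO minus WT difference was -0.17 log2 units. The macrophage markers did not move alike: KO 5 was highest in Cd68 (7.64) but at 5.83 in Cd163, where WT 4 was highest (7.27). The mean of 8 endothelial markers was 8.50 to 8.57 in KO arrays and 8.07 to 8.58 in WT arrays, lowest in WT 3 and WT 5. The mean of 6 markers of adipocytes of any kind was 12.84 to 13.03 in KO arrays and 13.00 to 13.08 in WT arrays. Its KO minus WT difference was -0.08 log2 units, with 5 of the 6 genes lower. The part of cell makeup in the pattern was not tested.

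Other genes of the pathway, listed by role, gave 0 calls over all probe sets. Among 13 further coat and droplet size genes, 9 were lower and 4 higher in KO arrays, with a median of -0.054 against -0.013 over the leading probe sets of all genes, of which 56.1% were lower. At an unadjusted p under 0.05 there were 3 of the 13, where 4.59% of all leading probe sets lay under it. There were 0 of the 13 without WT 4 and WT 5, and the median was then -0.022. Hilpda, a hypoxia-inducible droplet protein that inhibits PNPLA2, gave 7.18, 7.35, 7.34, 8.50 and 7.71 in KO arrays, against 6.94, 7.35, 6.99, 7.05 and 7.18 in WT arrays. KO 4 stood highest, and the difference of 0.51 ± 0.211 was 0.29 without it (adjusted p of limma 0.885 with all arrays). Without WT 4 and WT 5 the difference of Hilpda hardly moved, at 0.52, while its SE rose to 0.264 (unadjusted p of limma 0.076). Cideb, a relative of Cidec best known from liver, differed by 0.34 ± 0.148, or 0.15 without WT 4 and WT 5. Bscl2, the seipin of droplet formation, differed by -0.20 ± 0.083, or -0.12 without those arrays, and Aup1, a droplet protein that recruits ubiquitin enzymes, by -0.10, with an interval of -0.25 to 0.04, or -0.022 without those arrays.

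Among 14 other lipases and hydrolases, 9 were lower and 5 higher, with a median of -0.066 and 2 at an unadjusted p under 0.05. Of all leading probe sets, 56.1% were lower and 4.59% lay under that level. Without WT 4 and WT 5 the median was -0.034, with 1 of the 14 under it. Pnpla8, a mitochondrial and peroxisomal phospholipase, gave 11.04, 11.10, 11.00, 11.06 and 11.02 in KO arrays, against 11.14, 11.06, 11.22, 11.35 and 11.30 in WT arrays. Only WT 2 lay within the KO range, and the difference was -0.17 ± 0.062, or -0.095 without WT 4 and WT 5. Ces1f, a carboxylesterase, differed by -0.58 ± 0.235, or -0.28 without those arrays. Its relative Ces1d, a triacylglycerol hydrolase, differed by -0.23 (95% confidence interval -0.47 to 0.00), and Lpl, the lipoprotein lipase of the capillary wall, by -0.14 (-0.33 to 0.05). The values for Ces1d and Lpl were -0.091 and -0.005 without WT 4 and WT 5. Each of these 4 genes had an adjusted p of limma of 0.885.

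Signals to lipolysis were lower in 11 of the 13 analysed genes of 18 listed, where 56.1% of all leading probe sets were lower. The median was -0.076, with 0 at an unadjusted p under 0.05. Without WT 4 and WT 5, 10 of the 13 were lower and the median was -0.034. The list holds both activating and restraining signals, so the count gives no direction of signalling. Adcy3, an adenylyl cyclase that makes cyclic AMP, gave 9.43, 9.73, 9.56, 9.09 and 9.88 in KO arrays and 9.53, 9.34, 9.67, 10.86 and 10.62 in WT arrays. WT 4 and WT 5 stood apart from the other 8 arrays, and the difference of -0.47 was 0.024 without them. Adcy6, another cyclase, differed by -0.16, Insr, the insulin receptor, by -0.15, and Gnas, the stimulatory G protein, by -0.08. These differences were -0.062 for Adcy6, -0.04 for Insr and -0.031 for Gnas without WT 4 and WT 5. The adrenergic receptor genes of the list are not analysed here.

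Genes of triglyceride synthesis and of fatty acid or glycerol exit were lower in 6 and higher in 5 of 11 genes. The median was -0.01, with 0 at an unadjusted p under 0.05, while 56.1% of all leading probe sets were lower. Without WT 4 and WT 5, 5 were lower and 6 higher, with a median of 0.007. Gpat4 and Gpam, which add the first fatty acid to glycerol phosphate, differed by -0.28 and -0.20, Dgat1, which makes triglyceride from diglyceride, by -0.12, and Agpat2, which makes phosphatidic acid, by -0.09. Without WT 4 and WT 5 these were 0.025, -0.009, 0.011 and -0.12.

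**Figure D4:**
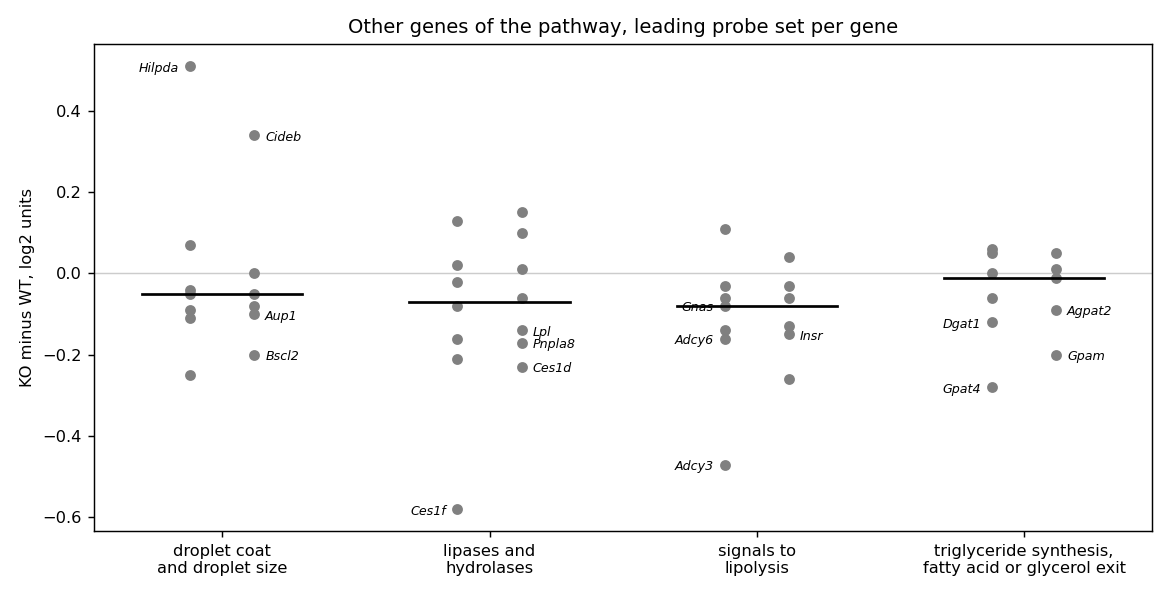
KO minus WT difference in log2 units (vertical) of the leading probe set of the other pathway genes, 1 grey point per gene, in the 4 lists (horizontal); black lines are list medians, and the 4 genes per list with the smallest unadjusted p are named. Medians lie between -0.076 and -0.01, and 0 genes passed the test over all probe sets.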

How the data were processed

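The deposited table holds log2 signals of 45101 probe sets on 10 arrays, made with RMA per the submitters' processing notes; the software and its settings were not stated there. RMA makes array distributions alike and marks no probe set as detected or not, and the number of arrays limits the precision. After 64 controls, probe sets with 1 gene in the platform annotation (34945) were kept, those with several (932) or none (9160) left out; 34741 matched the RefSeq table of GRCm38.p6 by gene ID. Groups came from the sample titles. KO minus WT was fitted with limma 3.58.1 (lmFit and eBayes in R 4.3.3) over all kept probe sets, without covariates, with Benjamini-Hochberg adjustment. The fit was also run on simulated data with independent noise for each probe set. That noise lacks changes shared between genes, so the run does not show how the fit behaves in these arrays. Single values were compared by exact permutation of 5 against 5 arrays (252 regroupings), correlations by 100000 permutations. Nothing in the labels says whether replicate numbers pair mice, and deviations of same-numbered arrays had r from -0.33 to 0.171, so they were not paired. Named from each other list are the 4 genes with the smallest unadjusted p, and from the pairs the 7 adjusted calls and 3 pairs listed by name; the planned limit was 6 calls, and the seventh was added after its value was seen. A pair of Cidec with Plin1 could not be computed. The members and lists were chosen with earlier results of these data known. Alternatives covered normalization, filters, variance models, covariates, probe set choice, a replicate block and arrays left out. Figures were drawn with matplotlib 3.10.9.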

Additional observations from a re-analysis of the deposited data

Results flagged for a closer look

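One value stood far from the others of its group: in the Mgll probe set 1453836_a_at, WT 1 was at 11.42 log2 units, while the other 4 WT arrays lay between 11.56 and 11.61. Its gap to the nearest of them was 0.75 of the whole WT range. Of the 34 groups of 5 arrays examined, over 17 probe sets and both genotypes, this was the only one of its kind. Chance gives about 1 in every 20 groups, a rate that 1 in 34 does not exceed.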

How the results depend on the processing

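Over the 20 alternatives, 0 member probe sets and 0 other pathway genes passed the adjusted test. Over the whole array the count was also 0, except 1 probe set, of Ptprb, without WT 2 (range 0 to 1 with single arrays left out). Probe sets at an unadjusted p under 0.05, 1892 of all, were 3004 with the muscle covariate and 2925 without WT 2. The replicate block, with the replicate number of the titles, gave 0 member calls, and no KO array correlated best with the WT array of its own number. Left-out arrays moved the count of correlated pairs, 7 with all arrays, to between 3 and 7. It was 1 without WT 4 and WT 5, a pair not among the 7 (Plin4 with Abhd5); the cause was not tested. Without WT 4 and WT 5 signs turned for Plin5 (0.047 and 0.067), Abhd5 (0.024), Mgll (0.029 and 0.007), Adcy3 (0.024), Gpat4 (0.025) and Dgat1 (0.011). Signs also turned for values near 0: Plin4 to 0.01 after quantile normalization again, 0.033 with array weights and 0.01 with the muscle covariate, Mgll 1453836_a_at to 0.012 and 0.007 with the first and last of these, and Abhd5 1447548_at to -0.004 with centred arrays and -0.029 with the muscle covariate. With single arrays left out Plin4 ranged from -0.057 to 0.033, Mgll 1453836_a_at from -0.043 to 0.015 and Abhd5 1447548_at from -0.059 to 0.044. The cause was not tested.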
